A study of Mus musculus with 4 samples.

Results

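The NKR-P1 and NKG2 lectin receptors are C-type lectin-like proteins that natural killer (NK) cells and some T cells carry on their surface. The genes described are the 10 that were listed by symbol: Klrb1a, Klrb1b, Klrb1c and Klrb1f of the NKR-P1 family, Klrc1 (NKG2A), Klrc2 (NKG2C), Klrd1 (CD94), Klrk1 (NKG2D), Klre1 and Klrg1. All 10 were among the 32285 genes of the deposited tables and all 10 were detected in NK cells of every library. The study compared ageing in mice of different genetic background. Its samples are blood mononuclear cells from 12-month-old and 20-month-old mice, either BL/6 or SM/J by their labels, sequenced as single cells in droplets (10x, 3′ ends). No treatment or engineered allele is named in the labels. The cells came from heart blood by density gradient, slow spin and red cell lysis. Each strain and age is 1 library of unique molecular identifier (UMI) counts. Both ages of a strain were run in 1 10x sample, so strain, 10x run and the mapping of SM/J reads to a reference of another strain cannot be told apart. A tag oligo divides each library into 3 aliquots. No source used here says whether an aliquot is an animal or a pool, so aliquots are given as values and not as replicates, and no test between groups was possible.

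Some NKR-P1 receptors pair with Clec2 proteins on other cells, and the mouse family holds activating (Klrb1a, Klrb1c, Klrb1f) and inhibitory (Klrb1b) members. Klrb1c encodes NK1.1, the antigen by which NK cells of BL/6 mice are usually recognised. Klrd1 forms dimers with Klrc1, which inhibit, or with Klrc2, which activate, and these dimers bind the nonclassical class I molecule Qa-1 (gene H2-T23). Klrk1 binds stress-induced ligands and signals through the adaptors DAP10 (Hcst) and DAP12 (Tyrobp). Klre1 pairs with Klri1 or Klri2. Klrg1 binds cadherins and marks mature NK cells and effector T cells.

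All 10 genes lie on mouse chromosome 6, and positions here are from GENCODE M21 on mm10. Klrg1 (122270596 to 122282882, minus strand) lies outside the NK gene complex. Klrb1a (128609227 to 128623533), Klrb1c (128778485 to 128789215) and Klrb1b (128813706 to 128826331) lie on the minus strand, with only 24490 bases between Klrb1c and Klrb1b. Klrb1f (129045901 to 129057464), Klre1 (129577905 to 129585827) and Klrd1 (129591782 to 129598775) lie on the plus strand. Klrk1 (129610323 to 129623864), Klrc2 (129647496 to 129660689) and Klrc1 (129666015 to 129678973) follow on the minus strand, with 5325 bases between Klrc2 and Klrc1. The annotation gives these genes transcripts of up to 5 to 8 exons.

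The sequences before the RefSeq starts of the 3 neighbouring NKR-P1 genes are shown because Klrb1b and Klrb1c differed between the libraries in the same direction and Klrb1a did not. They are RefSeq windows of GRCm38.p6, minus strand, 5′ to 3′, without bases that GENCODE gives as exons: chr6:128622935-128623184 for Klrb1a, chr6:128788642-128788886 for Klrb1c and chr6:128826332-128826565 for Klrb1b. The Klrb1a and Klrb1c windows lie inside the longer GENCODE spans of these genes. Capitals mark the letters TGTGGT, or ACCACA on the other strand, the core that Runx factors read.
Klrb1a: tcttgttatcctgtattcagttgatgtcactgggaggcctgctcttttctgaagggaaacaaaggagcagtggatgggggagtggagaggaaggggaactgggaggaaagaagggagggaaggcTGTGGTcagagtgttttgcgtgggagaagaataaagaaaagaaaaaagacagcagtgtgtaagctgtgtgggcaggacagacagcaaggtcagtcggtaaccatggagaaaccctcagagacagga
Klrb1c: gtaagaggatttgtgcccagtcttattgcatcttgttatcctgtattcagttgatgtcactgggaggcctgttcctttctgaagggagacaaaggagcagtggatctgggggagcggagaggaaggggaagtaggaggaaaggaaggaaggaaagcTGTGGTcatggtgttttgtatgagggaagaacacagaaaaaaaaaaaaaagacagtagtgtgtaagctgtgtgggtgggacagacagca
Klrb1b: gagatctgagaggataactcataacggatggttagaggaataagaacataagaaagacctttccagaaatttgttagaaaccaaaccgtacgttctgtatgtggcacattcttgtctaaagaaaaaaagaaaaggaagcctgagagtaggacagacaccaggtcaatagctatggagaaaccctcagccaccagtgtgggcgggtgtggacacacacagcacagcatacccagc
The Klrb1a and Klrb1c windows aligned over 215 columns, of which 188 (87.4%) were identical. Klrb1a and Klrb1b aligned over 82 columns, with 73.2% identical. The motif stood once in the Klrb1a window and once in the Klrb1c window, and these letters are not in the Klrb1b window. Of the 10 genes, 8 had a RefSeq window, and 6 of these held the motif in any of their full windows of 250 bases, exon bases included. Klrc2 is among the 6 but held none in its window without exon bases. Of all 32851 single windows 4614 (14.0%) held the motif. This is a share of windows and not of genes, so the count of 6 cannot be set against it. Klrb1c and Klrb1b, which were both highest in 12-month BL/6 NK cells, aligned over 50 columns, of which 36 (72%) were identical.

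NK cells were cells whose summed NK and T cell marker UMIs were above those of every other lineage, with at least 1 UMI of Ncr1 (the NKp46 receptor) or Gzma (granzyme A) and none of Cd3e (a chain of the T cell receptor complex). They numbered 99 in the 12-month BL/6 library, 69 in the 20-month BL/6 library, 60 in the 12-month and 50 in the 20-month SM/J library, or 2.91%, 2.23%, 2.49% and 1.86% of the kept cells. All 8 NK markers were seen in each library, and Ncr1, which the gate itself uses, was found in 91.7% to 98.0% of the NK cells. T cell markers summed to 694 to 1050.5 CPM (counts per 1e6 UMIs) in NK cells and B cell markers to 26.7 to 112 CPM, the latter limited by the gate. A gate on Ncr1, Gzma and Cd3e alone, without the lineage sums, gave 133, 117, 89 and 90 cells. In these B cell markers summed to between 634 and 3895 CPM and monocyte or macrophage markers to between 1253 and 3528 CPM. Erythroid markers summed to 8206 CPM in its 12-month SM/J cells. The 4 libraries held 2580 to 3551 deposited cells and 14250603 to 30627357 gene UMIs, and NK cells had a median of 2563.5 to 4642 UMIs. Each library of one strain shared 1 to 3 cell barcodes with each library of the other strain, and none with the other age of its own. Genes with at least 8-fold different levels between the strains at 12 months were taken, after values were seen, as a check of the strain labels. In B cells the 20-month BL/6 library was nearer to BL/6 in 77 of 85 such genes and the 20-month SM/J library nearer to SM/J in 68 of 85. In NK cells these counts were 11 of 16 for each strain.

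CPM here are the UMIs of a gene divided by all gene UMIs of the class and scaled as the name says, with exact Poisson 95% intervals. These, and all other intervals, cover counting error only. In NK cells 2 patterns were seen. Klrb1b, Klrb1c, Klrc1 and Klrc2 were highest in the 12-month BL/6 library and lower in the other 3, whereas Klrb1a, Klrd1, Klrk1 and Klre1 differed by less than 2-fold in each comparison. For Klrc2 the strain ratio at 12 months was short of 2-fold. Klrb1f was within 2-fold in each comparison, but its BL/6 age interval excluded 0, and Klrg1 passed 2-fold with age in SM/J.

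Klrb1b, the inhibitory NKR-P1B receptor, had 244 CPM (203 to 290) in NK cells of 12-month BL/6 mice. The other libraries had 19.8 CPM (7.25 to 43.0) at 20 months in BL/6, 16.7 CPM (3.45 to 48.9) at 12 months in SM/J and 22.0 CPM (6.00 to 56.4) at 20 months in SM/J. These rest on 128, 6, 3 and 4 UMIs. By aliquot, the 12-month BL/6 library gave 288, 208 and 242 CPM and the 20-month BL/6 library 23.9, 25.6 and 0 CPM, so the ages did not overlap. The log2 ratio of 20 over 12 months in BL/6 was -3.62 (-5.10 to -2.46), 12.3-fold lower. At 12 months SM/J was 14.6-fold lower than BL/6, a log2 ratio of -3.87 (-6.16 to -2.29). With 3 UMIs in SM/J this ratio moved to -4.97 without aliquot 3 and to -3.08 without aliquot 1 of that library. The 3 low libraries did not differ beyond their intervals, and too few UMIs remained to read a ratio among them.

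Klrb1c, which encodes NK1.1, had 657 CPM (589 to 730.1) in the 12-month BL/6 library. It had 184 CPM (139 to 239) at 20 months in BL/6, 156 CPM (104 to 226) at 12 months in SM/J and 165 CPM (111 to 236) at 20 months in SM/J. The aliquots of the 12-month BL/6 library had 848, 584 and 547 CPM, all above the 191, 111 and 312 CPM of the 20-month BL/6 aliquots and above the highest SM/J aliquot, at 216 CPM. The age ratio in BL/6 was -1.83 on the log2 scale (-2.27 to -1.42), 3.56-fold lower at 20 months. The ratio of SM/J over BL/6 at 12 months was -2.07 (-2.68 to -1.52). Klrb1c was found in 91.9% of 12-month BL/6 NK cells (exact Clopper-Pearson interval 84.7% to 96.4%) and in 47.8%, 33.3% and 42.0% of the others. With every cell thinned to 1000 UMIs these shares were 47.5%, 19.1%, 18.3% and 20.0%, in the same order of the highest library over the rest. In the 20-month BL/6 library 1 cell was too shallow for thinning.

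Klrb1a, an activating receptor of the same family, showed no such gap. Its levels were 202 CPM (165 to 244), 214 CPM (165 to 273), 262 CPM (193 to 349) and 237 CPM (171 to 319) in the order of 12-month BL/6, 20-month BL/6, 12-month SM/J and 20-month SM/J. Its 4 ratios lay between -0.15 and 0.38 on the log2 scale and all 4 intervals included 0. Klrb1f, another activating member, had 150.4, 88.9, 112 and 143 CPM. Its age ratio in BL/6 was -0.76 (-1.45 to -0.11), short of 2-fold but -1.02 without aliquot 3 of 20-month BL/6, and the aliquots of the 2 ages overlapped. Reads may be shared between genes: 9.84% of the 50-base words in the last 500 transcript bases of Klrb1a, 22.4% of those of Klrb1b and 17.8% of those of Klrb1c also occur in other genes, and none of those of Klrb1f do. Besides Klrb1a, Klrb1b and Klrb1c themselves, these other genes include Gm44511 and Klrb1-ps1, which are not among the genes described. How far such words moved counts between Klrb1a, Klrb1b and Klrb1c was not tested.

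**Figure D1:**
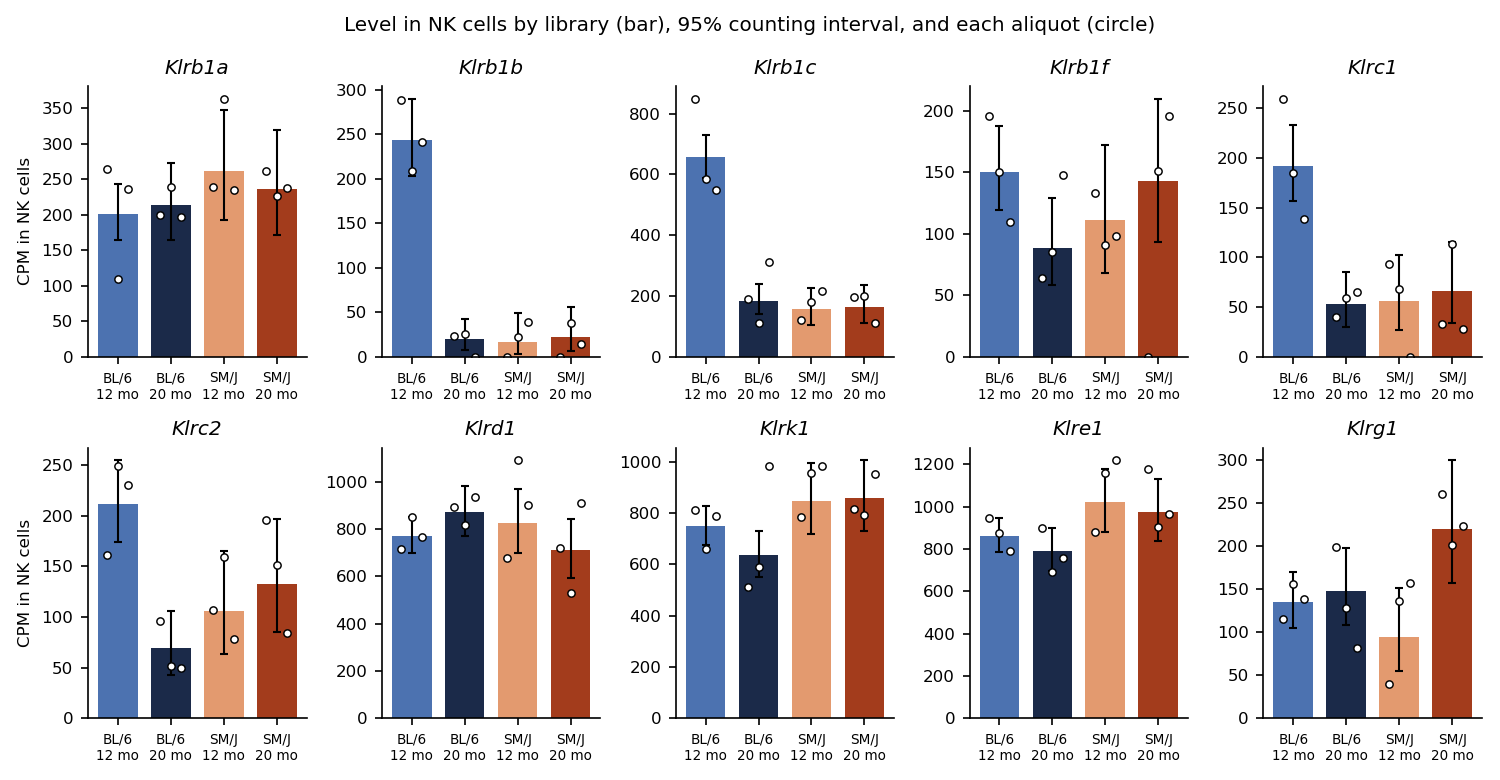
Levels of the 10 receptor genes in NK cells (CPM, linear axes from 0) for the 4 libraries, with bars for the library, error bars for the exact Poisson 95% interval and circles for the 3 aliquots. Klrb1b, Klrb1c, Klrc1 and Klrc2 stand highest in the 12-month BL/6 library, at 244, 657, 192 and 211 CPM, while Klrd1, Klrk1 and Klre1 stay between 636 and 1020.4 CPM in all 4.

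The chains that pair with CD94 differed past 2-fold between libraries, and CD94 by less. Klrc1, which encodes the inhibitory chain NKG2A, had 192 CPM (157 to 234) in 12-month BL/6 NK cells, 52.7 CPM (30.1 to 85.6) in 20-month BL/6, 55.8 CPM (26.7 to 103) in 12-month SM/J and 66.1 CPM (34.2 to 115) in 20-month SM/J. The aliquots of 12-month BL/6 had 259.6, 185 and 138 CPM and those of 20-month BL/6 39.8, 59.7 and 65.7 CPM, with no overlap. The ratio of 20 over 12 months in BL/6 was -1.87 on the log2 scale (-2.73 to -1.10), 3.65-fold lower. SM/J was lower than BL/6 at 12 months by a log2 ratio of -1.79 (-2.89 to -0.85), and by -2.74 without aliquot 1 of 12-month SM/J.

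Klrc2, which encodes the activating chain NKG2C, had 211 CPM (174 to 255), 69.2 CPM (42.8 to 106), 106 CPM (63.8 to 165) and 132 CPM (84.7 to 197) in the same order of libraries. In BL/6 its aliquots had 162, 249 and 230.4 CPM at 12 months and 95.6, 51.2 and 49.2 CPM at 20 months. The age ratio was -1.61 (-2.36 to -0.93), 3.06-fold lower, and the 2 ages did not overlap. At 12 months the ratio of SM/J over BL/6 was -0.997 (-1.78 to -0.29), a 1.995-fold difference just short of the 2-fold line. At 20 months Klrc2 was 1.91-fold higher in SM/J, with an interval of 0.03 to 1.85 on the log2 scale and overlapping aliquots. Both strain ratios passed 2-fold under some alternatives, reaching -1.53 at 12 months and 1.39 at 20 months.

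Klrd1, the CD94 chain itself, had 771 CPM (698 to 850.1), 873 CPM (771 to 984), 825 CPM (698 to 969) and 711 CPM (593 to 844). None of its 4 ratios reached 2-fold or excluded 0, and the BL/6 age ratio was 0.18 (-0.05 to 0.41). Klrd1 was found in 36 of 41 Klrc1-positive cells and 53 of 58 Klrc1-negative cells of 12-month BL/6, and in 13 of 13 and 51 of 56 at 20 months. Klrc2 was found in 28 of 41 Klrc1-positive and 26 of 58 Klrc1-negative cells at 12 months, and in 5 of 13 and 9 of 56 at 20 months, and so 28 and 5 cells held both chains. Of the 10 genes, Klrc1 shares the most transcript sequence with other genes. Of its 50-base end words, 43.5% also occur in Klrc2 or Klrc3, against 15.2% for Klrc2 and none for Klrd1, so the Klrc1 and Klrc2 counts are uncertain. By how much these counts moved was not tested.

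Klrk1, which encodes the activating receptor NKG2D, differed by less than 2-fold between the NK cells of all libraries compared. It had 748 CPM (676 to 826) in 12-month BL/6, 636 CPM (549 to 732) in 20-month BL/6, 848 CPM (718 to 994) in 12-month SM/J and 859 CPM (729.8 to 1005) in 20-month SM/J. The widest gap was between the strains at 20 months, with a log2 ratio of 0.44 (0.12 to 0.75), and the aliquots overlapped. Its adaptor Hcst stood at 548, 514, 664 and 589 CPM, with intervals that included 0 in all 4 ratios. Tyrobp, the other adaptor, stood at 2156 and 2160.2 CPM in BL/6 and at 1238 and 1102 CPM in SM/J, 1.74-fold and 1.96-fold lower in SM/J at 12 and 20 months.

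Klre1 had 863 CPM (785 to 946), 790.3 CPM (693 to 897), 1020.4 CPM (878 to 1179) and 975 CPM (837 to 1130). Its BL/6 age ratio was -0.13 (-0.36 to 0.10), and at 20 months SM/J stood at 0.30 over BL/6 (0.01 to 0.59), with aliquots that did not overlap. Its partner Klri2 did differ, with 375 and 125 CPM in BL/6 and 5.58 and 0 CPM in SM/J, from 197, 38, 1 and 0 UMIs. Klri2 was 3.00-fold lower at 20 than at 12 months in BL/6. Klri2 was found in 58 of 92 Klre1-positive NK cells in 12-month BL/6, in 16 of 62 in 20-month BL/6, in 1 of 52 in 12-month SM/J and in 0 of 44 in 20-month SM/J, with an exact interval for cells with a UMI of 0% to 8.04%. The other partner, Klri1, had 8, 6, 0 and 6 UMIs, too few to read.

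Klrg1, the cadherin receptor of mature NK cells, was the single gene of the 10 that passed 2-fold with age in SM/J, from 17 and 40 UMIs. Its 12-month count alone was under 20 UMIs, so it was read only through the 20-month library, where it was higher, and the call is a description. Klrg1 had 135 CPM (106 to 171) and 148 CPM (108 to 198) in BL/6 at 12 and 20 months, and 94.8 CPM (55.2 to 152) and 220.3 CPM (157 to 300.0) in SM/J. The SM/J aliquots had 39.97, 136 and 157 CPM at 12 months and 261, 201 and 224 CPM at 20 months. They did not overlap, and the log2 ratio was 1.22 (0.37 to 2.13), 2.32-fold higher at 20 months. In the gate on Ncr1, Gzma and Cd3e alone the ratio was of the other sign, at -0.34. Without aliquot 1 of 12-month SM/J it was 0.71, and 0 of the genes passed 2-fold. In BL/6 the ratio was 0.13 (-0.44 to 0.69), and the difference between the strains in this ratio was not tested.

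Of the 10 genes in NK cells, 4 were lower past 2-fold at 20 than at 12 months in BL/6 and 0 were higher, with a median log2 ratio of -0.50. Over all 5380 genes with at least 20 UMIs in that comparison, 8.35% were past 2-fold in either direction and the median was 0.00. In the same 4 genes the aliquots of the ages did not overlap, where 14.0% of all genes had aliquots apart. Of these 4, Klrb1b and Klrc1 reached 20 UMIs only through the 12-month BL/6 library, where they were high. Klrb1b, with 6 UMIs at 20 months, could be read only as lower, and the count is a description. In SM/J, 1 of 9 genes read was past 2-fold with age, where 8.16% of all genes were. That gene is Klrg1, with the limit given above, so this count is a description too. At 12 months 3 of 10 genes were lower past 2-fold in SM/J than in BL/6 and 0 were higher, where 15.0% of all genes were past 2-fold, and 4 of 10 had aliquots apart, where 19.1% of all genes did. Klrb1b and Klrc1 among the 3, and Klrc2 among the 4, had under 20 UMIs in 12-month SM/J and were read only through 12-month BL/6. At 20 months 0 of 9 genes passed 2-fold between the strains, where 10.8% of all genes did. The gate on Ncr1, Gzma and Cd3e alone gave 8 genes past 2-fold with age in SM/J and 4 between the strains at 20 months, and turned the 20-month strain ratios of Klrc2, Klrk1 and Klre1 to -0.42, -0.89 and -1.03. The BL/6 age comparison and the 12-month strain comparison share the 12-month BL/6 library, so they are not independent.

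**Figure D2:**
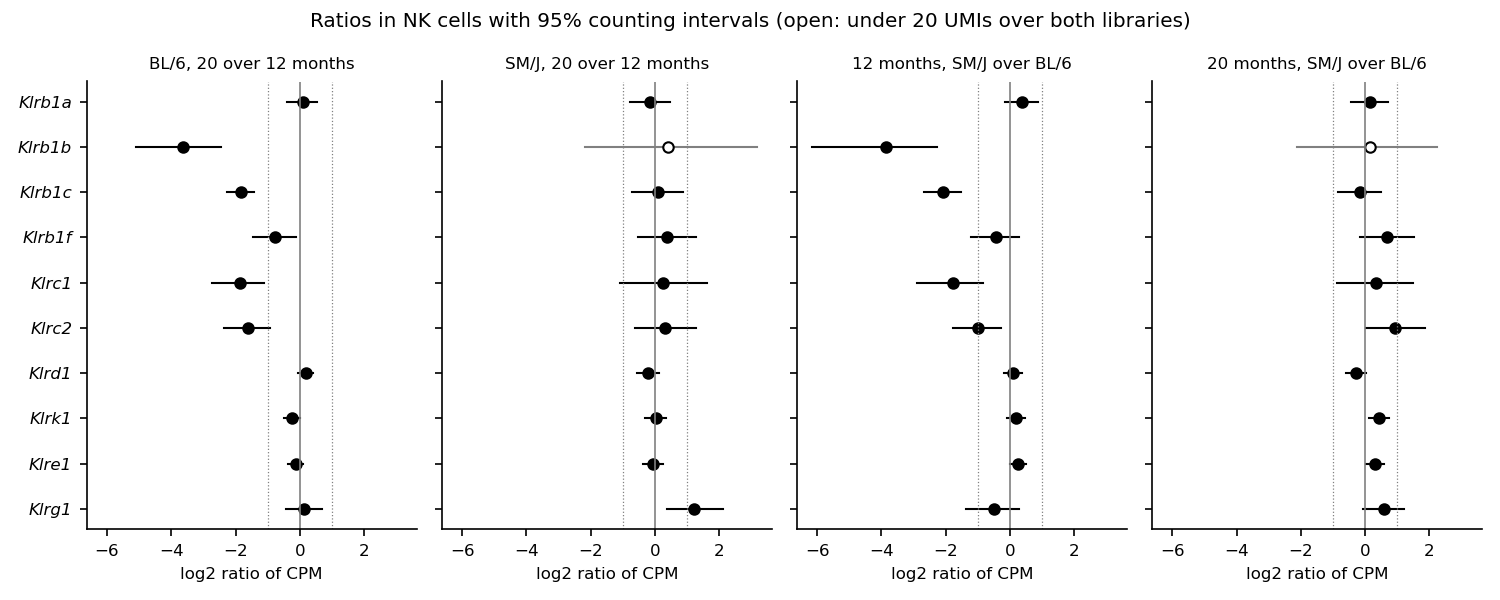
Log2 ratios of CPM in NK cells (x axes) for each gene in the 4 comparisons, with exact conditional binomial 95% intervals, dotted lines at 2-fold and open circles for genes with under 20 UMIs over both libraries. Klrb1b, Klrb1c, Klrc1 and Klrc2 lie at -3.62, -1.83, -1.87 and -1.61 with age in BL/6, while the 9 genes read in the 20-month strain comparison lie within 2-fold, with Klrc2 the highest at 0.93.

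Levels were also read without dividing cells, taken as those with a UMI of Mki67, Top2a, Birc5 or Ube2c. All 4 genes are among the 16 that differed 8-fold between the strains in 12-month NK cells, so their frequency is no result. They marked 13 of 99 NK cells in 12-month BL/6 (13.1%, 7.18% to 21.4%), the library with the deepest NK cells, and 3 of 69, 3 of 60 and 4 of 50 in the others, with overlapping intervals. Without these cells Klrb1b had 233, 21.3, 18.0 and 25.7 CPM and Klrb1c 732, 188, 162 and 154 CPM. Klrc1 then had 162, 53.3, 59.9 and 57.8 CPM and Klrc2 213, 74.6, 108 and 135 CPM, highest in 12-month BL/6 for all 4 genes.

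The adaptor, ligand and NK maturation genes outside the 10 are set against the 8.35% of all genes past 2-fold with age in BL/6 NK cells and the 15.0% between the strains at 12 months. In BL/6 with age, 1 of 11 adaptor and signalling genes was higher past 2-fold, Ptpn11 at 1.01 on the log2 scale, and 1 was lower, Sh2d1b1 (EAT-2) at -1.79 from 24 and 4 UMIs. Of 12 ligand genes 5 had enough UMIs and 2 were lower, H2-M3 at -1.12 (30 and 8 UMIs) and Clec2i at -1.21 (20 and 5 UMIs), both with intervals that included 0. The Qa-1 gene H2-T23 stood at 137 and 98.8 CPM in BL/6 and at 106 and 154 CPM in SM/J. Of 12 NK maturation genes read, Cd27 was higher at 1.53 (9 and 15 UMIs at 12 and 20 months) and Itga1 (CD49a) lower at -2.15 (23 and 3 UMIs). The genes called lower, Sh2d1b1, H2-M3, Clec2i and Itga1, reached 20 UMIs only through 12-month BL/6, where they were high, so these counts are a description. In SM/J with age, no gene of these 3 lists passed 2-fold among the 8, 2 and 9 read. At 12 months, 3 of 11 maturation genes were lower in SM/J, namely Cma1 at -1.60, Tcf7 at -1.45 (interval -3.41 to 0.05) and Itga1, at least 2.62-fold lower against a floor of 3 counts per library, and no adaptor or ligand gene passed. These 3 had 10, 4 and 0 UMIs in SM/J and reached 20 UMIs only through 12-month BL/6, where they were high. The direction of Tcf7 and Itga1 was set by the filter, and the count is a description. At 20 months Eomes, a transcription factor that NK cells need, was lower in SM/J at -1.14 (59 and 16 UMIs, the latter in SM/J), and no adaptor or ligand gene passed. Eomes reached 20 UMIs only through BL/6, where it was high, so this call is a description too.

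Along the complex, genes lower and higher past 2-fold lay side by side. The 21 genes between 128609227 and 131247362 of chromosome 6 with at least 40 NK UMIs, the Ly49 (Klra) genes among them, were listed after values were seen. Of these, 8 were lower past 2-fold at 20 than at 12 months in BL/6 and 3 were higher. Of the 8 lower genes 4 are the receptor genes already counted, and among the 12 other genes 4 were lower and 3 higher, against 8.35% of all genes past 2-fold in either direction. That share is over genes with at least 20 UMIs in both BL/6 libraries together, an unlike filter. Klri2, Klra3, Klrb1b and Klrc1 had most of their NK UMIs in 12-month BL/6 (197, 192, 128 and 101), where they were high, so the counts are a description. Among the Ly49 genes, which encode class I receptors, Klra8 stood at -2.02, Klra3 at -2.89 and Klra9 at -1.39, while Klra1 stood at 1.61 and Klra4 at 0.81. Klrc3, which lies between Klrk1 and Klrc2, was lowest in 12-month BL/6, with 26.7, 59.3, 139 and 82.6 CPM in the order of 12-month BL/6, 20-month BL/6, 12-month SM/J and 20-month SM/J. Klra8, the activating Ly49H receptor in BL/6, had 1004 CPM in 12-month BL/6 and 247, 189.6 and 143 CPM in the other libraries.

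**Figure D3:**
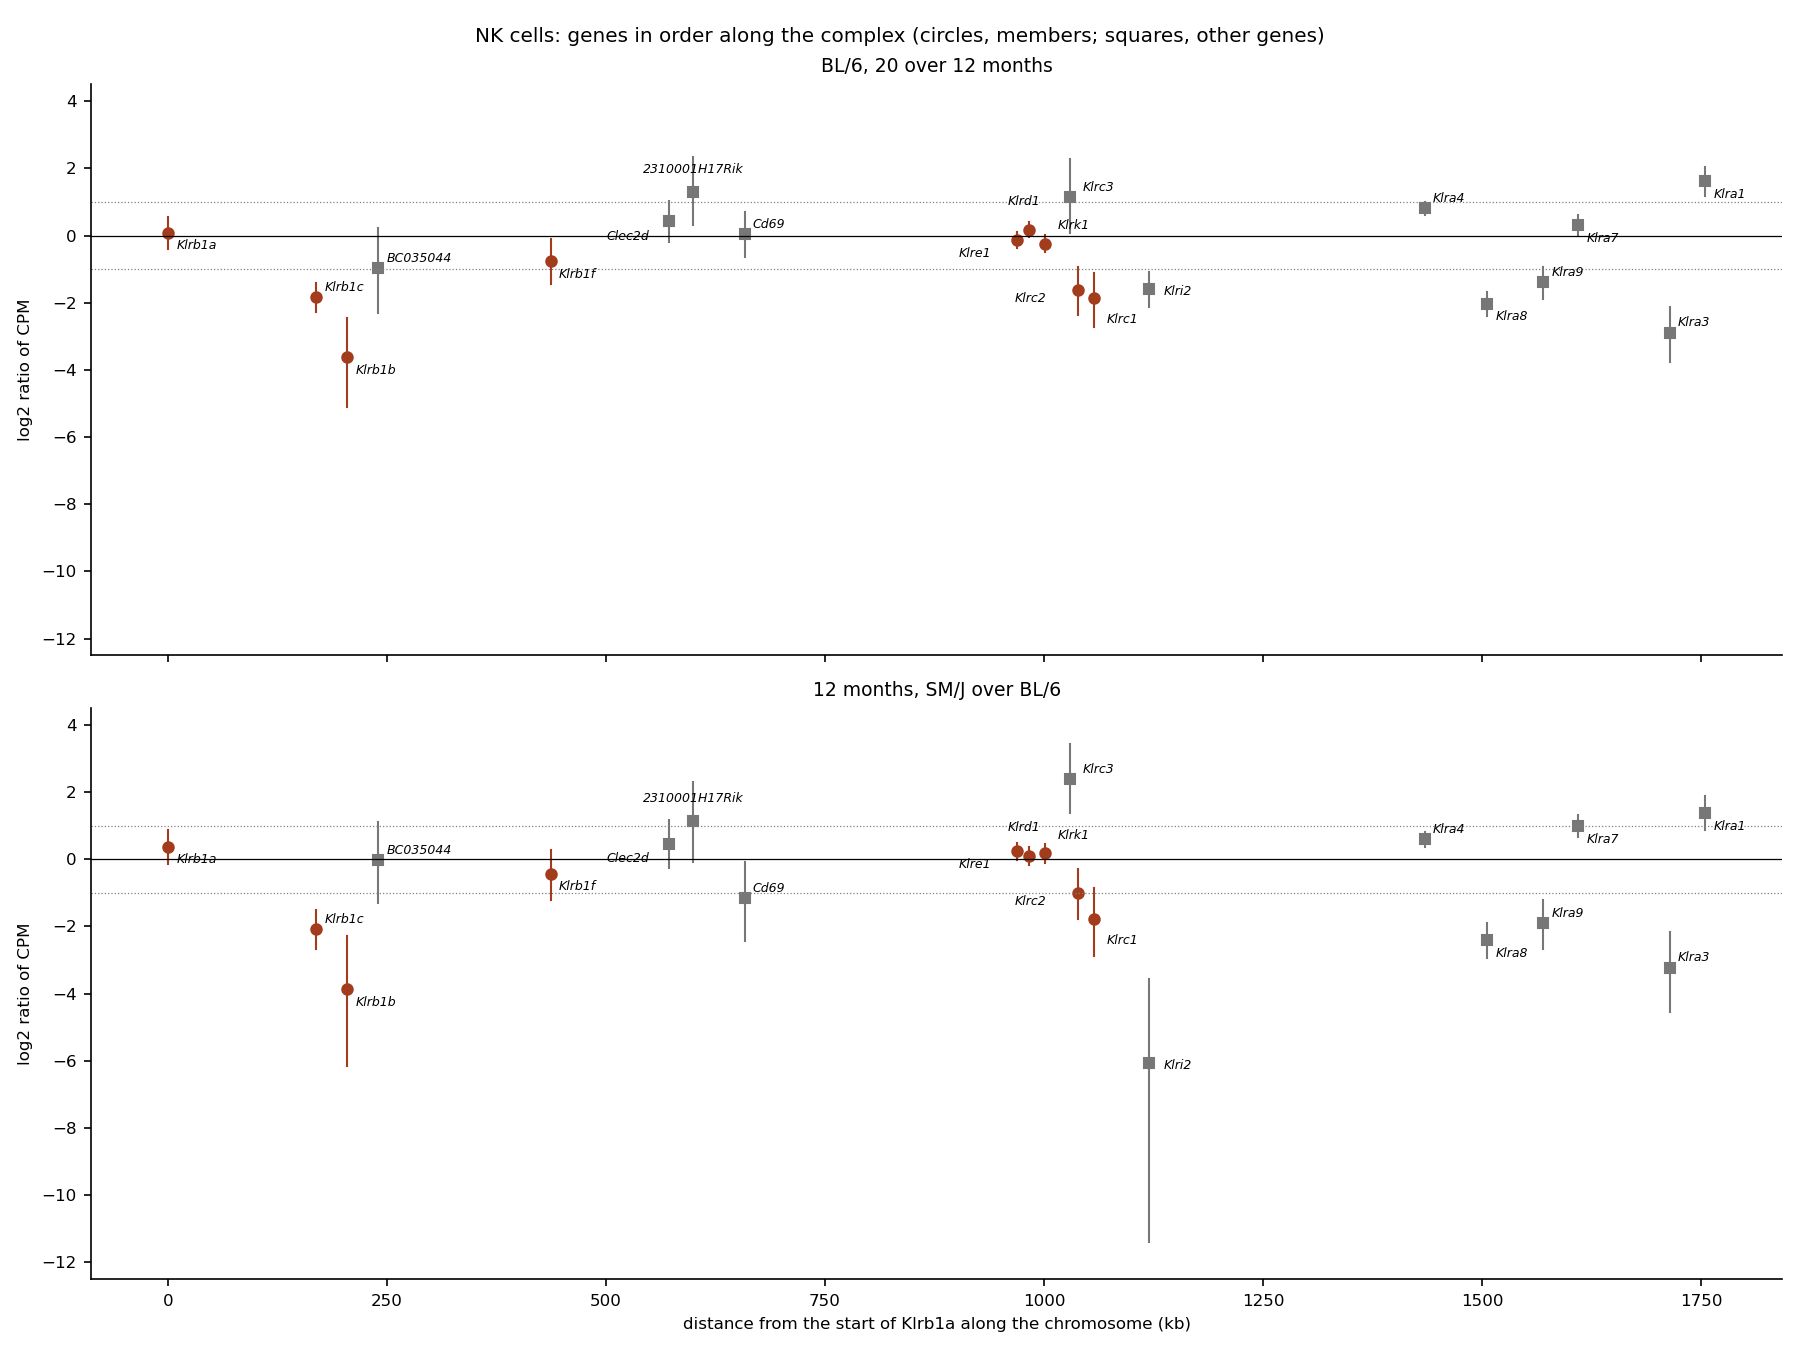
Log2 ratios of CPM in NK cells (y axes) against distance from the start of Klrb1a (kb) for 21 genes of the complex, with exact 95% intervals and dotted lines at 2-fold, for age in BL/6 (top) and strain at 12 months (bottom). Klre1, Klrd1 and Klrk1 lie within 2-fold in both panels, Klrc2 and Klrc1 lie below 0, and Klrc3 and Klra1 lie above 0.

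CD8 T cells (at least 2 UMIs of T cell markers, and Cd8a or Cd8b1) numbered 213, 139, 114 and 57. In them 7 genes had enough UMIs and the 12-month BL/6 library was highest for all 7. Klrk1, a costimulatory receptor on activated and memory CD8 T cells, had 355 CPM (323 to 389.5) in 12-month BL/6, 78.4 CPM in 20-month BL/6, 38.0 CPM in 12-month SM/J and 55.8 CPM in 20-month SM/J. Its BL/6 aliquots had 437, 281 and 365 CPM at 12 months and 67.8, 107 and 58.7 CPM at 20 months, with no overlap. It was 4.53-fold lower at 20 months, a log2 ratio of -2.18 (-2.52 to -1.85), and 9.34-fold lower in SM/J than in BL/6 at 12 months, at -3.22 (-3.82 to -2.68). Of the 29 Klrk1 UMIs of 12-month SM/J CD8 T cells, 17 lay in 12 dividing cells. Without dividing cells the levels at 12 months were 17.5 CPM in SM/J and 357 CPM in BL/6, and the ratio was -4.345. At a mitochondrial limit of 5% it was -2.63.

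Klrb1c had 55 UMIs in 27 of 213 CD8 T cells of 12-month BL/6 (43.0 CPM), 0 UMIs in 139 cells of 20-month BL/6, where the exact interval for UMI-positive cells reaches 2.62%, and 1 and 2 UMIs in SM/J. It was at least 16.8-fold lower at 20 months in BL/6, against a floor of 3 counts per library. Klre1 had 139, 26.4, 11.8 and 44.1 CPM, with a BL/6 age ratio of -2.40 (-2.999 to -1.84). Its 12-month strain ratio was -3.56, and -5.95 without aliquot 3 of 12-month SM/J. Klrg1 had 30, 3, 0 and 0 UMIs, 9.19-fold lower with age in BL/6, with a log2 ratio of -3.20 that was -2.58 without aliquot 2 of 20-month BL/6. The NKG2A gene Klrc1 had 119, 50.3, 5.25 and 11.8 CPM, lower at 20 months in BL/6 at -1.24 (-1.70 to -0.80) and lower in SM/J at 12 months at -4.50 (-6.40 to -3.12). Klrc2 had 74.3, 41.7, 5.25 and 14.7 CPM, with a BL/6 age ratio of -0.83, short of 2-fold. Klrd1 differed least, with 306, 197, 159 and 162 CPM and a BL/6 age ratio of -0.64 (-0.88 to -0.40).

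Of the 10 genes 7 reached 20 UMIs, and 5 of these were lower past 2-fold with age in BL/6 CD8 T cells and 0 were higher, with a median of -2.18, where 9.18% of all 7978 genes were past 2-fold and the median was -0.15. Klrb1c and Klrg1 reached 20 UMIs only through the 12-month BL/6 library, so they could be read only as lower, and the count is a description. All 7 had aliquots apart, where 23.6% of all genes did. At 12 months 6 of 7 were lower in SM/J and 0 higher, where 15.1% of all genes were past 2-fold, and 7 of 7 had aliquots apart, where 28.7% of all genes did. Only Klrk1 and Klrd1 reached 20 UMIs in 12-month SM/J itself, and the other 5 were read only through 12-month BL/6. Of these 5, Klrb1c, Klrc1, Klrc2 and Klrg1, with at most 4 UMIs in SM/J, could be read only as lower, so the count is a description. With age in SM/J, 1 of 3 genes passed 2-fold, against 8.22%. This was Klre1 at 1.90 (0.61 to 3.27), from 9 and 15 UMIs, with overlapping aliquots of 4.77, 0 and 25.1 CPM at 12 months and 17.8, 15.0 and 116 CPM at 20 months. Without aliquot 3 of 12-month SM/J (1 and 15 UMIs left) or of 20-month SM/J (9 and 4 UMIs left) Klre1 had under 20 UMIs and was not read, and no other gene passed 2-fold. Without dividing cells Klre1 had 2 and 4 UMIs and was not read, while Klrk1, at 0.55 over all CD8 T cells, had 12 and 16 UMIs and a ratio of 1.58, so the gene past 2-fold changed. Klrk1 was also past 2-fold without aliquot 2 of 20-month SM/J, at 1.19. At 20 months 2 of 5 genes, Klrc1 at -2.10 and Klrc2 at -1.51, were lower in SM/J, where 14.6% of all genes were past 2-fold, and both reached 20 UMIs only through BL/6. Klrc2 was short of 2-fold with mean CPM per cell (-0.84), and Klrk1, at -0.49, was past it without aliquot 3 of 20-month SM/J (-1.95).

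**Figure D4:**
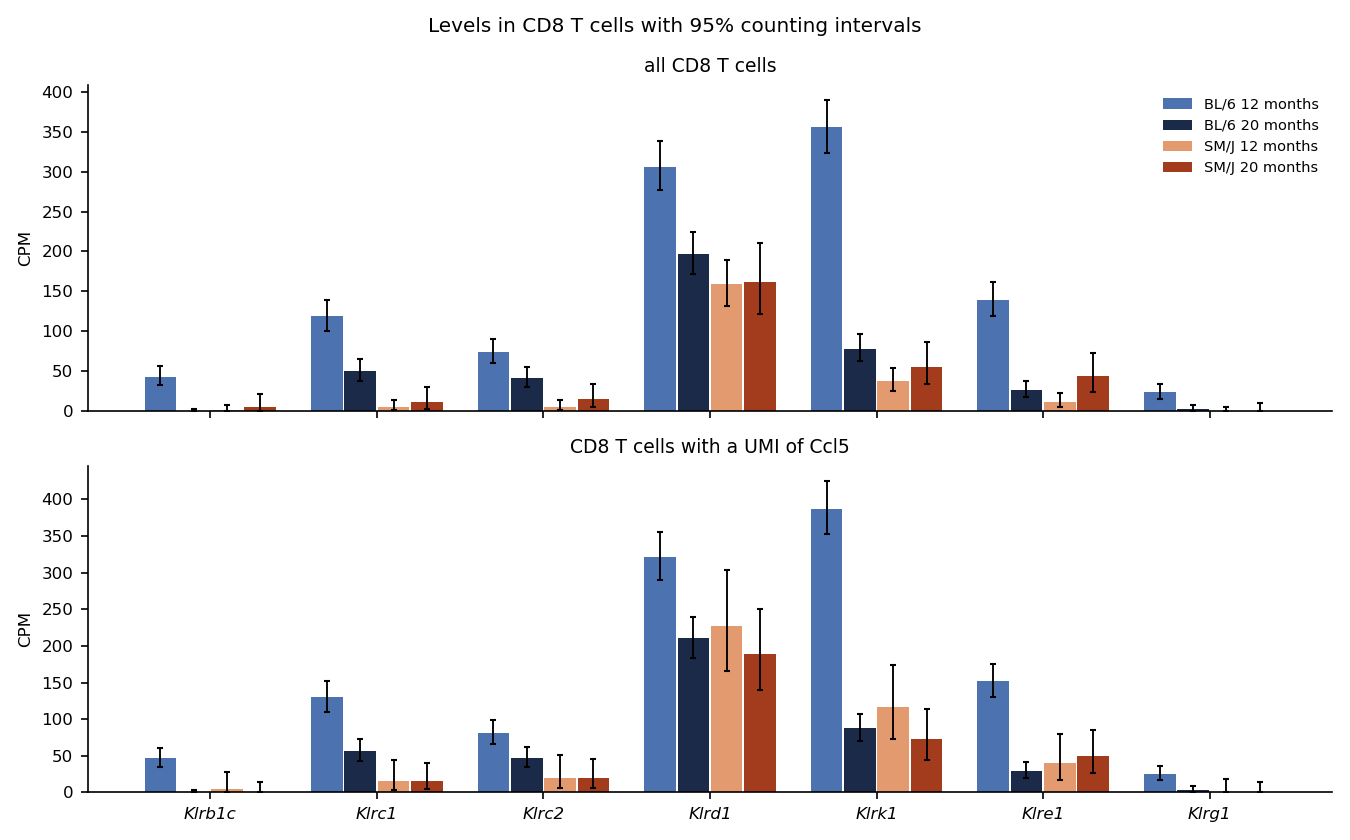
Levels (CPM, from 0) of 7 receptor genes in all CD8 T cells (top) and in those with a UMI of Ccl5 (bottom) for the 4 libraries, with exact Poisson 95% intervals. The 12-month BL/6 bars are the highest for each gene in both panels, for example Klrk1 at 355 CPM and 387.5 CPM.

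Ccl5 is a chemokine gene of memory and effector CD8 T cells, and the share of CD8 T cells with a UMI of it differed between the libraries, at 91.1%, 84.9%, 29.8% and 77.2%. In BL/6, 95.7% to 100% of the UMIs of each gene seen in CD8 T cells lay in the Ccl5-positive cells. Within these cells Klrk1 had 387.5, 87.6, 116 and 73.3 CPM, with a BL/6 age ratio of -2.15 (-2.49 to -1.82). Klre1 had 152, 29.5, 40.3 and 50.2 CPM with a BL/6 age ratio of -2.36, and Klrc1 had 129.7, 56.2, 15.1 and 15.4 CPM with -1.21. Klrb1c was at least 16.4-fold lower at 20 months there. As these cells hold nearly all UMIs of the genes in BL/6, the BL/6 ratios within them could hardly differ from those of all CD8 T cells. The 12-month strain ratio of Klrk1 was smaller within them, at -1.74 (-2.41 to -1.14) in place of -3.22. That of Klrc1 was -3.10 (-5.39 to -1.53) in place of -4.50, with overlapping intervals. It rests on 3 UMIs in SM/J and 152 in BL/6, so it was read only through BL/6. Gzma, which takes part in the NK gate, had 885, 17.1, 509 and 201 CPM in Ccl5-positive cells. Of the maturation genes, 6 of 11 read were also lower past 2-fold with age in BL/6 CD8 T cells, where 9.18% of all genes were past 2-fold in either direction, namely Cx3cr1 at -4.16, Itga1 at -3.01, Zeb2 at -2.72, Itga2 at -2.46, S1pr5 at -1.77 and Tbx21 at -1.05. Cx3cr1, Itga2 and S1pr5 had 5, 4 and 10 UMIs at 20 months and reached 20 UMIs only through 12-month BL/6, where they were high. Of these, Cx3cr1 and Itga2 could be read only as lower, and the count is a description.

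Other T cells (T cell markers without CD8) numbered 225, 386, 241 and 170. In them 5 of 7 genes read were lower past 2-fold with age in BL/6 and 0 were higher, where 5.14% of all genes were past 2-fold. They were Klrb1c at -4.68 (50 and 3 UMIs), Klrc2 at -2.35, Klrc1 at -1.52, Klre1 at -1.37 and Klrk1 at -1.29, while Klrd1 stood at -0.01 and Klrg1 at -0.21. Klrb1c and Klrc2 reached 20 UMIs only through 12-month BL/6, and Klrc2 was at -1.46 with a mitochondrial limit of 5%. Of the 5, 4 had aliquots apart, where 15.9% of all genes did. The BL/6 aliquots of Klrk1 overlapped, with 144, 60.5 and 103 CPM at 12 months and 31.3, 74.98 and 26.9 CPM at 20 months, and its ratio was short of 2-fold (-0.98) without aliquot 1 of 12-month BL/6. At 12 months 6 of 6 genes read were lower in SM/J, where 11.2% of all genes were past 2-fold. Only Klrk1 and Klrd1 reached 20 UMIs in SM/J, and the other 4 were read only through 12-month BL/6. Of these 4, Klrb1c, Klrc1 and Klrc2 could be read only as lower, so the count is a description. Klrk1 was the single gene past 2-fold with age in SM/J, against 6.18% of all genes, and between the strains at 20 months, against 11.0%. It had 104, 42.3, 25.05 and 86.3 CPM, and its SM/J ratio was 1.78 (1.07 to 2.54), with aliquots of 16.8, 42.2 and 14.7 CPM at 12 months and 69.7, 109 and 69.6 CPM at 20 months. The Klrk1 UMIs of 12-month SM/J lay largely in dividing cells, with 19 of 24 in 16 of 241 cells, and without such cells the level was 5.70 CPM, the SM/J age ratio 3.815 and the 12-month strain ratio -4.33 in place of -2.05. The 20-month strain ratio of Klrk1 was 1.03 (0.52 to 1.53), with overlapping aliquots, and it was short of 2-fold without dividing cells (0.83), with TMM scaling (0.93) and with mean CPM per cell (0.64). Most Klrk1 UMIs of this class, 74.1% to 100% by library, lay in cells without a UMI of Cd4.

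In the NK, CD8 T and other T cells together the genes differed in how far they were shared. Of the UMIs of all 4 libraries, NK cells held 90% for Klrb1a, 85.5% for Klrb1b, 78.9% for Klrb1c, 73.6% for Klre1, 69.7% for Klrb1f and 66.5% for Klrg1. For Klrk1 the share was 45.7%, for Klrc2 45.5%, for Klrd1 41.6% and for Klrc1 31.3%, and CD8 T cells held 30.3%, 39.7%, 35.0% and 49.3%. These shares pool unlike libraries: the NK share of Klrk1 was 36.3% in 12-month BL/6 and 68.2% in 12-month SM/J. For Klrb1b 139 of the 165 UMIs came from 12-month BL/6, and NK cells held 6 of 10 in 20-month BL/6 and 4 of 12 in 20-month SM/J, where monocytes or macrophages held 8. In 20-month SM/J other T cells held more than CD8 T cells for Klrk1 (23.02% against 7.54%) and for Klrc1 (32.1% against 14.3%). B cells should lack these receptors and give the level of free RNA. In B cells the highest level of any of the 10 in any library was 2.95 CPM and the highest share of cells with a UMI was 0.805%, at median depths of 3487.5 to 9683 UMIs. Granulocytes and red cells, with 1 to 53 cells per library, held no UMI of any of the 10.

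Klrd1 and Klrk1 were also found in dendritic cells, a class of 16, 17, 44 and 25 cells. Klrd1 had 324 and 324 CPM in BL/6 at 12 and 20 months and 63.6 and 109.5 CPM in SM/J, from 54, 42, 20 and 20 UMIs. Klrk1 had 33 and 7 UMIs in BL/6 (198 and 54.0 CPM) and 0 UMIs in SM/J at both ages, where the exact interval for the share of cells with a UMI reaches 8.04% and 13.7%; a cell without a UMI may still express the gene. Ncr1, Gzma and Nkg7 together gave at most 3 UMIs in this class in any library, and Cd3e none. Siglech, a plasmacytoid marker by which the class was split after values were seen, was found in 9 of 16 and 14 of 17 BL/6 cells and in all 44 and all 25 SM/J cells, and the part of this difference in the Klrk1 difference was not tested. Of the 33 Klrk1 UMIs in 12-month BL/6, 28 lay in the 7 cells without Siglech. In monocytes and macrophages Klrk1 had 13.1, 1.75, 2.89 and 0.87 CPM and Klrd1 9.39, 3.78, 2.89 and 1.12 CPM, highest in 12-month BL/6 for both.

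**Figure D5:**
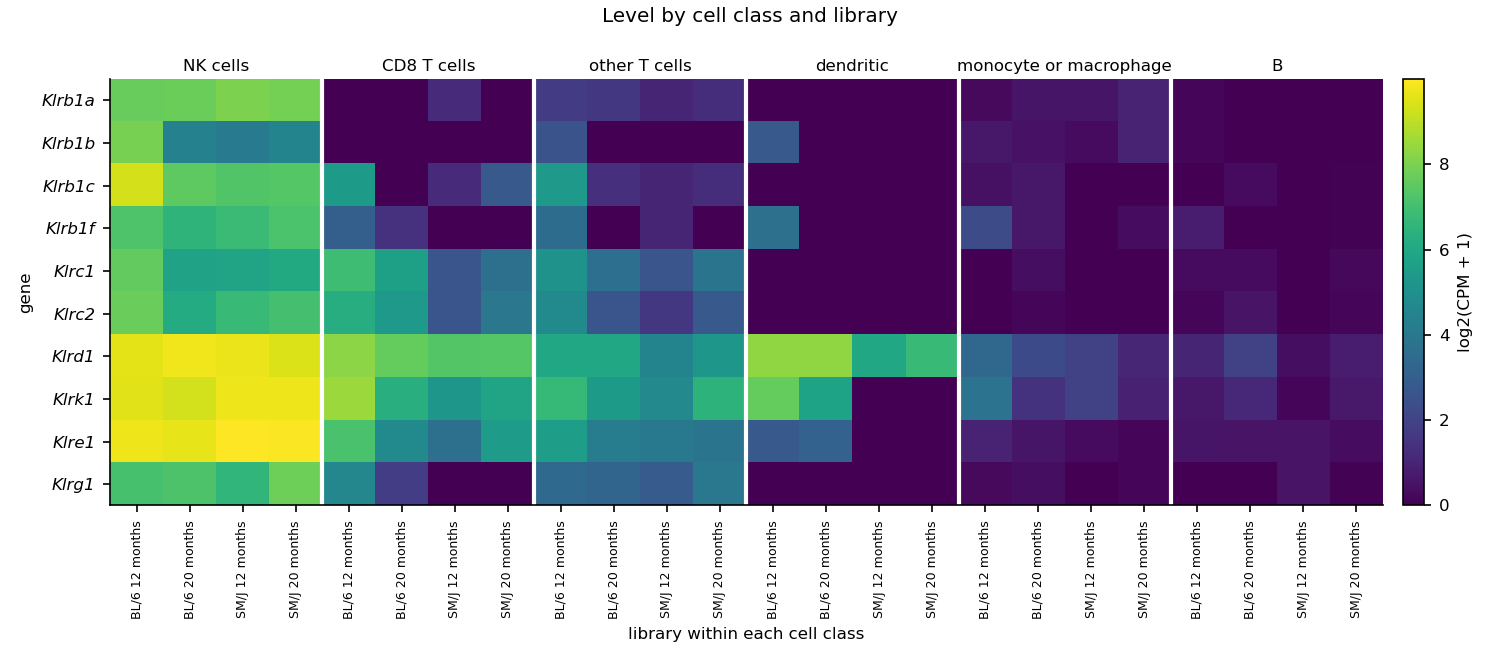
Levels of the 10 genes, as log2(CPM + 1) by colour, in 6 cell classes and the 4 libraries of each. NK cells show all 10 genes, CD8 T cells mainly Klrd1, Klrk1, Klrc1, Klrc2 and Klre1, and dendritic cells Klrd1 in every library and Klrk1 in BL/6 alone.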

How the data were processed

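Single-cell gene expression and tag libraries of mouse blood mononuclear cells were analysed. The deposited matrices hold UMI counts per gene and cell and counts per tag oligo, made with Cell Ranger 7.0.1 per the file headers. The submitters' processing notes also list mm10 and Seurat 4.3.0. How cells were called before deposit is not given in the sources used here.

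Kept cells had 500 UMIs and 200 genes or more and no more than 10% of UMIs from mitochondrial genes, and doublets called by Scrublet (expected rate 0.06, scanpy 1.11.5) were removed, 130 in all, which left 11591 cells. Cells were classed by summed marker UMIs and the NK gate described in the results. The gate as worded, without the lineage sums, was an alternative. UMIs were summed by class and library and divided by the gene UMIs of the class (CPM). Log2 ratios were read where both libraries together had at least 20 UMIs and called past 2-fold; a library at 0 was set to a floor of 3 counts. Intervals are exact 95% intervals. With 1 library per strain and age no test was made, and the fixed design used none. Shares were also computed after thinning to 1000 UMIs. By the rule for naming, all 10 genes are named, and genes outside them come from fixed lists and had at least 20 UMIs in the comparison or are pathway partners, or are said to be chosen after their values were seen. The 10 genes and all lists were chosen with earlier results of these data known. Alternatives were the mitochondrial limit, the minimum UMIs, TMM scaling (edgeR 4.0.16), mean CPM per cell, other gates, clusters and leaving out each aliquot. The sums and intervals were tested on simulated data. Protein sequences were not used here.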

Additional observations from a re-analysis of the deposited data

Results flagged for a closer look

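The age ratios of 2 genes pointed in opposite directions in the strains. Klre1 in CD8 T cells had a log2 ratio of 20 over 12 months of -2.40 in BL/6 and 1.90 in SM/J. The SM/J value rests on 9 and 15 UMIs, and within Ccl5-positive CD8 T cells it was 0.31 (-1.07 to 1.79). Of the Klre1 UMIs of SM/J CD8 T cells 7 of 9 and 11 of 15 lay in dividing cells, which leaves 2 and 4 UMIs, too few to read a ratio. Klrk1 in other T cells had -1.29 in BL/6 and 1.78 in SM/J. The BL/6 aliquots overlapped (60.5 CPM in one at 12 months, 74.98 CPM in one at 20 months), and without aliquot 1 of 12-month BL/6 the ratio was -0.98, under 2-fold. Of its 24 UMIs in 12-month SM/J, 19 lay in dividing cells. The difference between the strains was not tested for either gene, since each strain and age is 1 library.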

How the results depend on the processing

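Of the single-gene ratios under alternatives other than leaving out an aliquot, 655 stayed within their spread, 33 moved and 4 reversed. Of the counts past 2-fold 88 stayed and 12 moved, and of the medians 94 stayed and 6 moved. Of the shares of cells with a UMI 21 stayed and 59 moved, since a share depends on the depth to which cells are thinned. With age in BL/6 NK cells, Klrb1b ranged from -4.20 to -3.075 over the alternatives, Klrb1c from -2.41 to -1.51, Klrc1 from -2.44 to -1.485 and Klrc2 from -2.19 to -1.39. The gate as worded, whose cells held more B cell and monocyte marker UMIs, gave the BL/6 age comparison of NK cells a median of -1.10, the SM/J age comparison 8 genes past 2-fold and a median of -1.27, the 12-month strain comparison 5 genes, and the 20-month strain comparison 4 genes and a median of -0.91. It reversed Klrg1 with age in SM/J (-0.34) and, between the strains at 20 months, Klrc2 (-0.42), Klrk1 (-0.89) and Klre1 (-1.03). The number of genes past 2-fold in the 20-month strain comparison of NK cells was 1 with mean CPM per cell, with a gate also without Cd3d, Cd3g, Cd8a and Cd8b1, and with the cluster in place of the gate. In that comparison of CD8 T cells it was 1 with mean CPM per cell, and in that of other T cells 0 with TMM scaling. With age in SM/J it was 2 in other T cells at a mitochondrial limit of 5%, and 0 in CD8 T cells with at least 50 UMIs. Without dividing cells, an alternative chosen after seeing the data, it was 2 in other T cells with age in SM/J and 0 between the strains at 20 months. Leaving out each aliquot gave 0 to 1 in NK cells and 0 to 2 in other T cells at 20 months between the strains, and with age in SM/J 0 to 1 in NK cells, 0 to 2 in CD8 T cells and 1 to 2 in other T cells. The cause of these shifts was not tested. No paired analysis was possible because each strain and age is 1 library and the result comes from no test.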

Other observations

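Klrg1 was also found in other T cells with a UMI of Foxp3, the factor of regulatory T cells. These were 6, 10, 8 and 6 cells in 12-month BL/6, 20-month BL/6, 12-month SM/J and 20-month SM/J, and they held 5 of 12, 8 of 16, 0 of 6 and 4 of 10 Klrg1 UMIs of the class.

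Likeness to 12509 genes was measured by Pearson's r of log2(CPM + 10) across 20 points of class and library, as a description. For 4 of the 10 the highest r was 0.99 between Klrb1a and Ncr1, 0.93 between Klrb1b and Klra8, 0.98 between Klrb1c and Klra9 and 0.98 between Klrk1 and Il18rap. The points share libraries and cell classes, and Ncr1 was used in the gate.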
